A study of Mus musculus with 9 samples.

Results

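The nuclear-encoded subunits of the respiratory chain and of ATP synthase were followed in cultured mouse preneoplastic lung neuroendocrine cells (preSC) and in preSC transduced with a MYC family gene. Members were the genes whose symbol starts with Nduf followed by a, b, c, s or v and a digit (complex I), is Sdha, Sdhb, Sdhc or Sdhd (complex II), or starts with Uqcr (complex III), with Cox4 to Cox8 (complex IV) or with Atp5 (complex V). A gene was represented by its single-symbol probe set with the highest mean over the 9 arrays. The rule gave 81 of 18193 genes, namely 35 of complex I, 4 of complex II, 8 of complex III, 17 of complex IV and 17 of complex V. Of these, 79 were bright enough to be tested among 12976 genes. The probe sets of Ndufb4, a complex I subunit, and of Cox7b2, a testis form of a complex IV subunit, stayed too dim, at 4.56 to 5.48 and 3.56 to 3.86 on the log2 scale. The name pattern places Ndufa4 and its paralogue Ndufa4l2 under complex I, although NDUFA4 is now regarded as a complex IV protein, and Cox7a2l, a supercomplex assembly factor, under complex IV.

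The study compared preSC transduced with a retro-L-Myc virus (2 arrays), a retro-C-Myc virus (2 arrays) or a retro-N-Myc virus (2 arrays) with untransduced preSC (3 arrays). The cells came from the lungs of mice of mixed C57BL/6 and 129/Sv background that carried conditional Rb, p53 and p130 alleles and were infected with Adeno-Cre virus, so all 4 groups share that genotype, and all were grown without stroma in RPMI1640 with bovine growth serum. The design text calls the replicates biological. The labels name no separate cultures or clones, so the p-values measure the spread between these arrays. Values are the deposited log2 intensities, made by RMA, which summarises the probes of a probe set.

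Oxidative phosphorylation passes electrons from NADH through complex I, and from succinate through complex II, to ubiquinone. Complex III hands them to cytochrome c and complex IV to oxygen. Complexes I, III and IV pump protons across the inner mitochondrial membrane, and complex V uses their return flow to make ATP. Most subunits are encoded in the nucleus, a few of the core ones in mitochondrial DNA, and MYC proteins are known to bind promoters of many nuclear genes for mitochondrial proteins.

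Of 7 promoters held for members that rose or fell in all 3 transduced groups, 4 are shown: the 3 that hold a motif marked here, and that of Cox7c. Those of Ndufs4, Ndufs7 and Ndufv3 hold neither motif. Each line gives the 250 bases before the start site, 5′ to 3′ on the gene's strand, from RefSeq (GRCm38.p6). They are chr13:86046796-86047045 (minus strand) for Cox7c, chr4:116075071-116075320 (minus) for Uqcrh, chr15:102671048-102671297 (minus) for Atp5g2 and chr7:30626115-30626364 (minus) for Cox6b1. Capitals mark the motif of nuclear respiratory factor NRF1 (GCGCA, any base, then GCGC) or CCGGAAG, the core motif of ETS factors, read on either strand.
Cox7c: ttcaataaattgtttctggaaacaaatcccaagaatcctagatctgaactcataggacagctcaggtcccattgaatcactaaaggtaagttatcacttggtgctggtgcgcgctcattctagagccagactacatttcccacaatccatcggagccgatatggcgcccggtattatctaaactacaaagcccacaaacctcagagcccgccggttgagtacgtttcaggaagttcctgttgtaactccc
Uqcrh: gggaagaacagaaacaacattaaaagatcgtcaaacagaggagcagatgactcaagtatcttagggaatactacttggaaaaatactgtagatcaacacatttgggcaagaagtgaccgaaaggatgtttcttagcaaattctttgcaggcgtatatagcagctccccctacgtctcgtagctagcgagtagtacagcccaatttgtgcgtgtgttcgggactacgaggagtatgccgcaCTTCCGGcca
Atp5g2: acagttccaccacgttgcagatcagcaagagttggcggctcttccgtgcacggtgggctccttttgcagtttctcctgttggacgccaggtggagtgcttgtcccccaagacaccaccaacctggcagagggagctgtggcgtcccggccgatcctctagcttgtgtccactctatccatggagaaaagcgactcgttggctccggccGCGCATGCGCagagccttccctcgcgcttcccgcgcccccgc
Cox6b1: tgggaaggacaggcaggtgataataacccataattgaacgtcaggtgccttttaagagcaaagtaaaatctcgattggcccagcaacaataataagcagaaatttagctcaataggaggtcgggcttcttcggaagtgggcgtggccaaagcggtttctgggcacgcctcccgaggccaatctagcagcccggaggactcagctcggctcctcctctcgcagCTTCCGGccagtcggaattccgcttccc

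The NRF1 motif of Atp5g2 lies 42 bases before the start. The ETS core lies 10 bases before the start of Uqcrh and 28 before that of Cox6b1, the first a gene that rose and the second one that fell. Of 64 tested members with a promoter in the table, 10 (15.6%) held the NRF1 motif in these 250 bases, against 8.96% of 10442 tested genes. CCGGAAG stood in 12 (18.8%), against 14.9%. The E-box CACGTG, which MYC proteins bind with MAX, stood in 6 (9.38%), against 9.81%, and in none of the 7 promoters held for members that rose or fell in all 3 comparisons. The 3 motifs were searched on both strands and do not contain one another. A match describes the letters only.

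The arrays did not all group by label, which touches every result below. L-Myc 2 and C-Myc 2 correlated at 0.996 over all probe sets and differed over 2-fold at 41, whereas L-Myc 1 and L-Myc 2 differed at 2252 and C-Myc 1 and C-Myc 2 at 3035. C-Myc 1 differed from N-Myc 1 and N-Myc 2 at 194 and 182 probe sets. The N-Myc arrays differed at 13 and preSC 1 and 2 at 47, and preSC 3 at 1909 and 1807 from those. Of 3 Mycl probe sets, 1 read 11.79 and 12.74 in L-Myc arrays and at most 8.52 elsewhere. A Myc probe set read 11.22 and 10.68 in C-Myc arrays, 11.96 and 11.40 in N-Myc arrays and at most 8.13 in the others. The other 2 Mycl probe sets overlapped between L-Myc and C-Myc arrays. The 3 Mycn probe sets disagreed. One read 9.05 and 8.46 in N-Myc arrays and at most 6.39 elsewhere. Another, at 11.07 to 13.54, was high in all 6 transduced arrays and at most 6.89 in preSC. The last was low in the N-Myc arrays, at 5.62 and 5.47, against 5.38 to 8.02 in L-Myc and C-Myc arrays and 7.74 to 8.52 in preSC arrays. Groups are called by their labels.

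Control probe sets also separated transduced from preSC arrays. The mean of the 18S ribosomal RNA probe sets lay at 8.22 to 9.35 in transduced and 12.88 to 13.91 in preSC arrays, and the 5′ minus 3′ difference of the spiked-in Dap transcript at -1.68 to -1.51 in transduced and -3.66 to -3.40 in preSC arrays. The same difference for Actb was -0.31 to -0.20 in transduced and -0.85 to -0.62 in preSC arrays. The part of these differences in the results was not tested. Of 9 measured neuroendocrine markers, 9 lay above the 40th percentile of every array, the level used as the limit for dim probe sets (5.28 to 5.34). They moved with the comparisons: 2 rose in each transduced group (Syp and Uchl1), and 2 fell in L-Myc, 6 in C-Myc and 6 in N-Myc, among them Chga (-0.84 in L-Myc, -1.32 in C-Myc, -1.36 in N-Myc) and Scg2 (-1.93 in L-Myc, -2.42 in C-Myc, -1.66 in N-Myc). Their mean level was 10.75 to 11.19 in transduced and 11.32 to 11.39 in preSC arrays.

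Markers of other cell types were partly dim. Below the 40th percentile in all 9 arrays were Col1a1, Col1a2, Col3a1 and Lum of 7 fibroblast markers, Pecam1, Cdh5, Tek and Emcn of 6 endothelial ones, Ptprc and Itgam of 5 leukocyte ones, and Scgb1a1 of 6 of lung epithelium. Others were bright and uneven. Vwf, an endothelial marker, read 6.95 to 8.63 in transduced and 10.57 to 10.66 in preSC arrays and fell in each transduced group. Dcn, a fibroblast marker, read 10.32 in L-Myc 2, 9.69 in C-Myc 2 and 9.32 in preSC 3, and 5.29 to 6.86 in the other arrays. The myeloid marker Lyz2 read 5.61 to 6.76 in those 3 arrays and 9.31 to 12.31 in the others, and the alveolar marker Sftpc read 10.59 to 11.10 in C-Myc 1 and the N-Myc arrays and 6.06 to 8.42 in the others. The alveolar marker Ager fell in each transduced group. The mean level of the fibroblast list was 4.89 to 5.38 in transduced and 5.21 to 5.40 in preSC arrays, and of the endothelial list 4.93 to 5.26 in transduced and 5.44 to 5.67 in preSC arrays. It was 5.08 to 6.28 in transduced and 4.74 to 5.62 in preSC arrays for the leukocyte list, and 5.72 to 6.62 in transduced and 5.86 to 6.31 in preSC arrays for the lung epithelial list. The part of these markers in the results was not tested. In these bulk samples, fewer cells of a type and less RNA per cell cannot be told apart.

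The share of these subunits that differed from preSC was near that of all genes. It lay slightly below with the values as deposited, and above in C-Myc and N-Myc with 2 other scalings. No result about the members is drawn from that order. What stood out was individual genes: Sdhc and Cox7c were higher by 1.57 to 2.02 on the log2 scale in each transduced group, while the other members that passed in all 3 moved by about 1 log2 unit or less. In L-Myc against preSC, 6 members rose and 4 fell (limma, adjusted p under 0.05), 12.7% of the 79 tested, beside 13.5% of all genes. C-Myc against preSC gave 10 rises and 6 falls, 20.3% of members beside 23.5% of all genes. N-Myc against preSC gave 12 rises and 9 falls, 26.6% beside 28.8%. These 3 comparisons share the preSC arrays. Where 3 values follow one another below, the first is for L-Myc, the second for C-Myc and the last for N-Myc, each against preSC, differences are between group means (log2), SE is the standard error of a difference, and a gene that rose or fell passed this test. After centring arrays on the median of tested genes, 13.9%, 29.1% and 38% of members passed, beside 14.2%, 25.1% and 32.2% of all genes. After quantile normalization, 11.4%, 25.3% and 31.6% of members passed, beside 13.5%, 23.2% and 29.3%. By direction, 5.44%, 9.91% and 12.5% of all genes rose and 8.03%, 13.6% and 16.4% fell. The split of members depends on scaling: 60%, 62.5% and 57.1% of those called were higher as deposited, 90.9%, 82.6% and 86.7% after centring, and 44.4%, 40% and 44% after quantile normalization. Over all genes called, centring moved the share that was higher to 62%, 63.4% and 63.7%, against 40.4%, 42.2% and 43.2% as deposited. After quantile normalization that share was 39.9%, 43% and 45.9%, near the members' split. Centring also moved the median of all genes to 0.10, 0.12 and 0.14, against -0.04, -0.05 and -0.03.

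**Figure D1:**
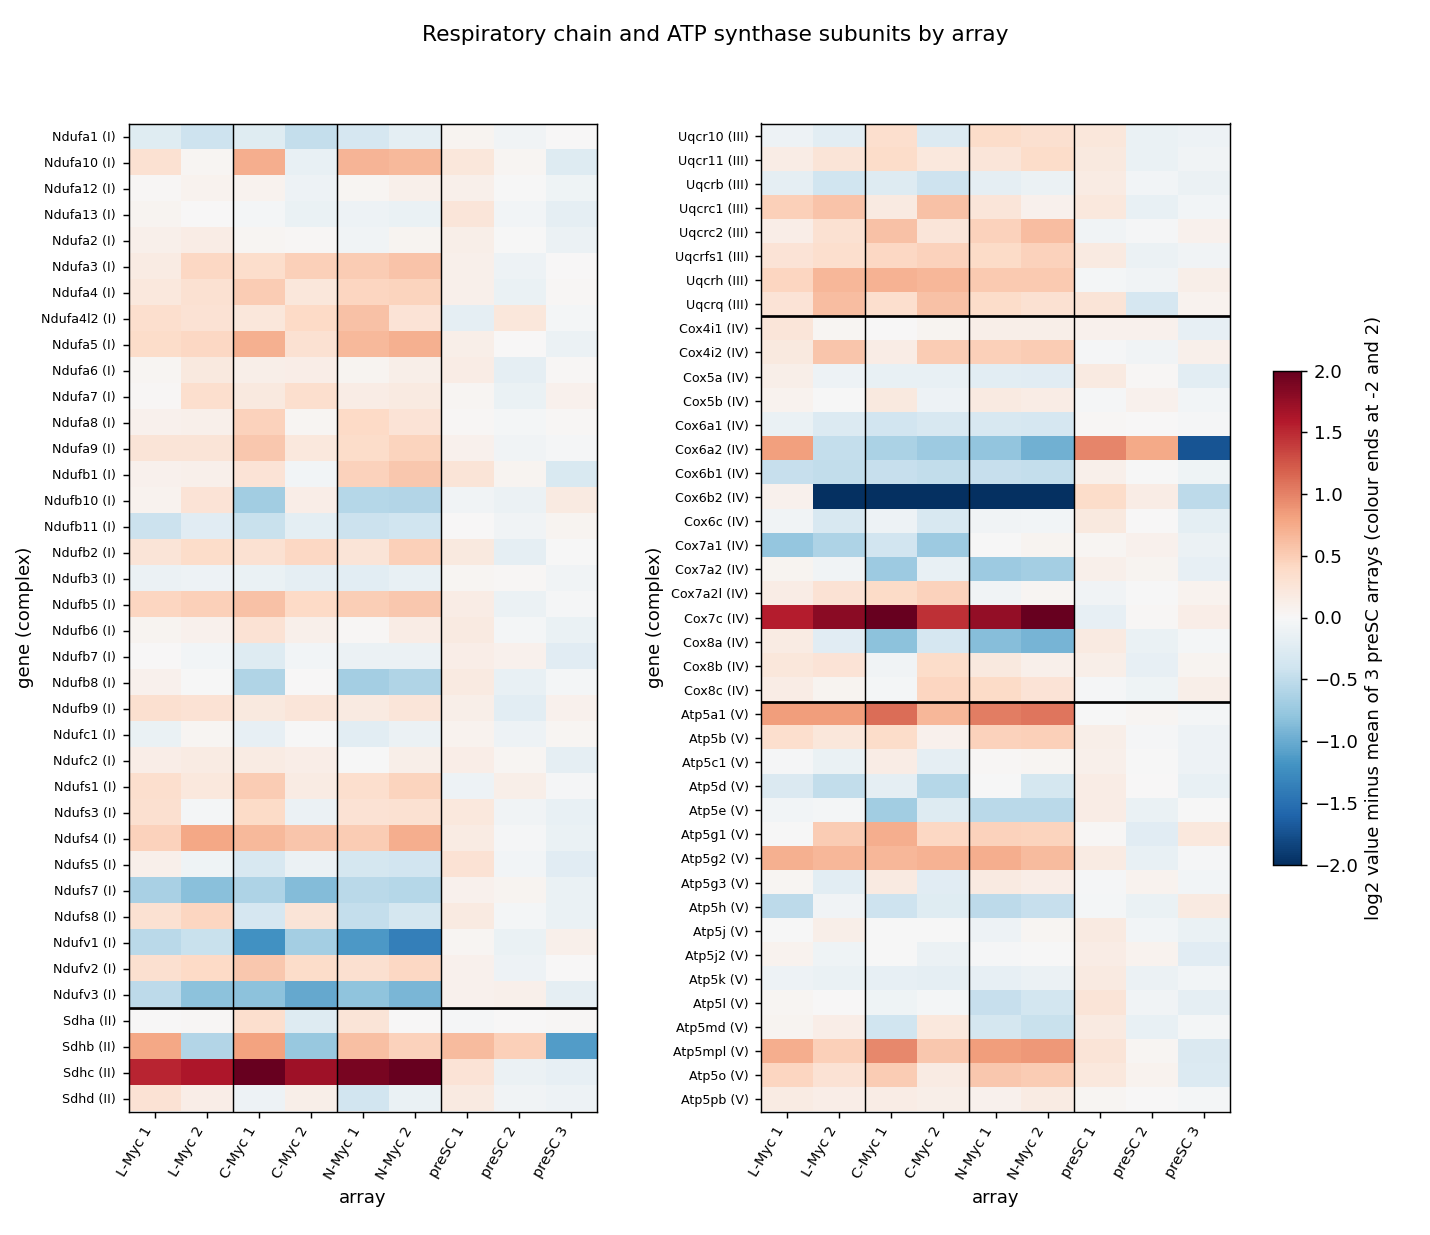
Each row is one of 79 tested members, ordered by complex, and each column an array, the transduced groups left of preSC. Colours give the log2 RMA value minus the preSC mean. The rows of Sdhc and Cox7c are higher in all 6 transduced arrays, and L-Myc 2 resembles C-Myc 2 while C-Myc 1 resembles the N-Myc arrays.

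Between complexes the medians were small. For complex III, the median difference of its 8 members from preSC was 0.26 in L-Myc, 0.40 in C-Myc and 0.34 in N-Myc, with 1, 1 and 2 members passing, all higher. For complex I it was 0.13, 0.13 and 0.08 over 34 members, with 1, 3 and 4 rises and 2, 3 and 4 falls. Complex II had a median of 0.15, 0.03 and 0.33 over 4 members, of which Sdhc alone passed. Complex IV, with 16 members, had 0.02, -0.18 and -0.04, with 1, 2 and 1 rises and 2, 3 and 4 falls. The falls in L-Myc and C-Myc include Cox7a1, which is dim there. Complex V, with 17, had 0.06, -0.01 and 0.03, with 2, 3 and 4 rises and 0, 0 and 1 falls. Over all genes the median was -0.04, -0.05 and -0.03. In the 5 complex III genes with a second probe set that could be tested, the median relative to all genes was 0.11, 0.02 and 0.22 with the second-brightest and 0.29, 0.50 and 0.44 with the brightest.

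**Figure D2:**
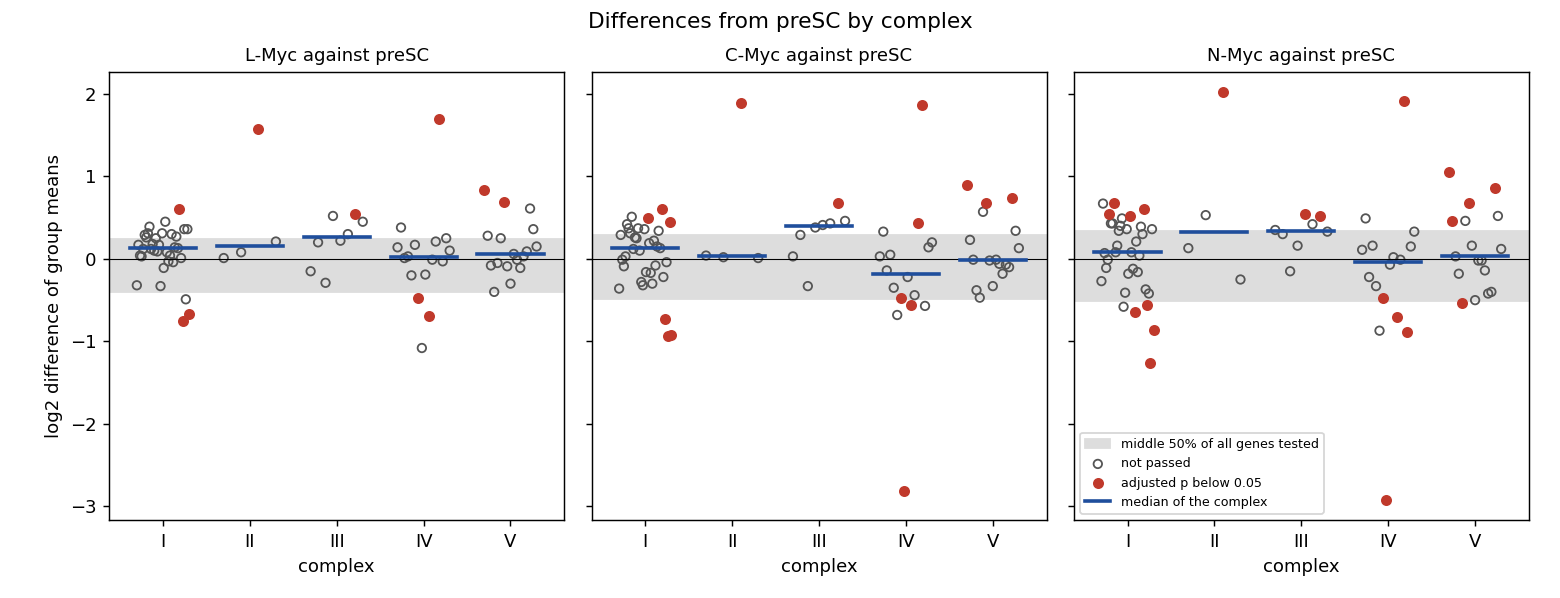
Points are the differences of group means from preSC (log2) for the 79 members, by complex and for each transduced group, with the members that passed the test marked. Most members lie near 0, Sdhc reaches 2.02 and Cox7c 1.91 in N-Myc, and Cox6b2 falls to -2.92.

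Complex II oxidises succinate and is a step of both the TCA cycle and the respiratory chain. Its 4 subunits did not move together. Sdhc, one of the membrane anchors that hold its haem, read 10.76 and 10.84 in L-Myc arrays, 11.31 and 10.92 in C-Myc arrays, 11.13 and 11.36 in N-Myc arrays and 9.51, 9.11 and 9.07 in preSC arrays. Every transduced array was above every preSC array by over 1 log2 unit. The differences were 1.57, 1.89 and 2.02 (SE 0.19; limma adjusted p = 0.006, 0.00302 and 0.00231). A second Sdhc probe set also rose, by 0.87, 1.07 and 1.22.

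The other anchor, Sdhd, differed by 0.21, 0.01 and -0.25, and the catalytic flavoprotein Sdha by 0.01, 0.04 and 0.13, none passing. Sdha's second probe set did not pass either (-0.51, -0.37 and -0.12), while a much fainter one, at 5.14 to 5.53 in transduced and 6.22 to 6.83 in preSC arrays, passed as lower in all 3, so no statement is made on Sdha as a whole. Sdhb, the iron-sulphur subunit, read 12.75 and 11.39 in L-Myc arrays, 12.79 and 11.23 in C-Myc arrays, 12.58 and 12.44 in N-Myc arrays and 12.62, 12.46 and 10.87 in preSC arrays. It was thus low in 1 array each of L-Myc, C-Myc and preSC, within labels rather than between them, and its differences from preSC were 0.08, 0.02 and 0.53 (adjusted p = 0.953, 0.985 and 0.589).

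Complex IV reduces oxygen, and several of its nuclear subunits come in tissue-specific pairs. Cox7c, a small subunit with no tissue-specific pair, read 8.76 and 8.99 in L-Myc arrays, 9.45 and 8.65 in C-Myc arrays, 8.95 and 9.24 in N-Myc arrays and 7.03, 7.21 and 7.33 in preSC arrays. The groups did not overlap. It rose by 1.69, 1.86 and 1.91 (SE 0.25; limma adjusted p = 0.00872, 0.00424 and 0.00392), and its second probe set, below the 40th percentile in 1 preSC array, by 2.13, 2.46 and 2.19. Sdhc and Cox7c were the members that passed in all 3 comparisons under each of 16 other settings, with Sdhc between 0.87 and 2.19 and Cox7c between 1.46 and 2.46.

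Cox6b1, the ubiquitous form of a subunit at the dimer interface, fell slightly in all 3. It read 12.91 and 12.87 in L-Myc arrays, 12.90 and 12.87 in C-Myc arrays, 12.90 and 12.89 in N-Myc arrays and 13.46, 13.35 and 13.28 in preSC arrays. The differences were -0.47, -0.48 and -0.47 (SE 0.12; limma adjusted p = 0.0384, 0.0254 and 0.023), whereas its second probe set differed by -0.05, 0.05 and 0.00. Its testis-enriched paralogue Cox6b2 read 8.13 and 5.81 in L-Myc arrays, 4.62 and 5.86 in C-Myc arrays, 5.36 and 4.89 in N-Myc arrays and 8.42, 8.19 and 7.53 in preSC arrays. L-Myc 1 lay among the preSC arrays and the other 5 transduced arrays below them. Cox6b2 fell in C-Myc (-2.81) and N-Myc (-2.92; SE 0.68; limma adjusted p = 0.0249 and 0.0194) and differed by -1.08 in L-Myc (adjusted p = 0.329). C-Myc 1 and N-Myc 2 lay below the 40th percentile of their arrays, so these falls rest in part on dim values.

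Among the other paired subunits, Cox7a1, the heart and muscle form, was dim. It read 4.78 and 4.95 in L-Myc arrays, 5.17 and 4.83 in C-Myc arrays, 5.55 and 5.61 in N-Myc arrays and 5.60, 5.64 and 5.44 in preSC arrays. All 4 L-Myc and C-Myc values lay below the 40th percentile, so Cox7a1 was tested only through its preSC and N-Myc values. It passed as lower in L-Myc and C-Myc and is among the falls counted above. These 2 falls are not read as a result, and no size is given. In N-Myc it differed by 0.02. The liver form Cox7a2 fell in N-Myc (-0.70), and differed by -0.01 in L-Myc and -0.44 in C-Myc. Cox8a, the ubiquitous form, fell in N-Myc (-0.89; limma adjusted p = 0.0166), while Cox8b, the heart and muscle form, was dim throughout at 4.99 to 5.52. Cox7a2l rose in C-Myc by 0.43. Cox4i1, the common form of the regulatory subunit IV, differed by 0.14, 0.03 and 0.11, and the lung form Cox4i2, at 5.34 to 5.96, by 0.38, 0.33 and 0.49, none passing. The common form Cox6a1 differed by -0.20, -0.35 and -0.33.

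The muscle form Cox6a2 divided the arrays across labels. It read 12.17 and 10.88 in L-Myc arrays, 10.72 and 10.62 in C-Myc arrays, 10.56 and 10.39 in N-Myc arrays and 12.33, 12.10 and 9.62 in preSC arrays. It was high in L-Myc 1 and preSC 1 and 2, and lowest in preSC 3. A second probe set of the gene had the same 3 arrays highest, at 10.73, 11.46 and 10.97, and preSC 3 lowest, at 8.30. None of the differences from preSC, 0.17, -0.68 and -0.87, passed.

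**Figure D3:**
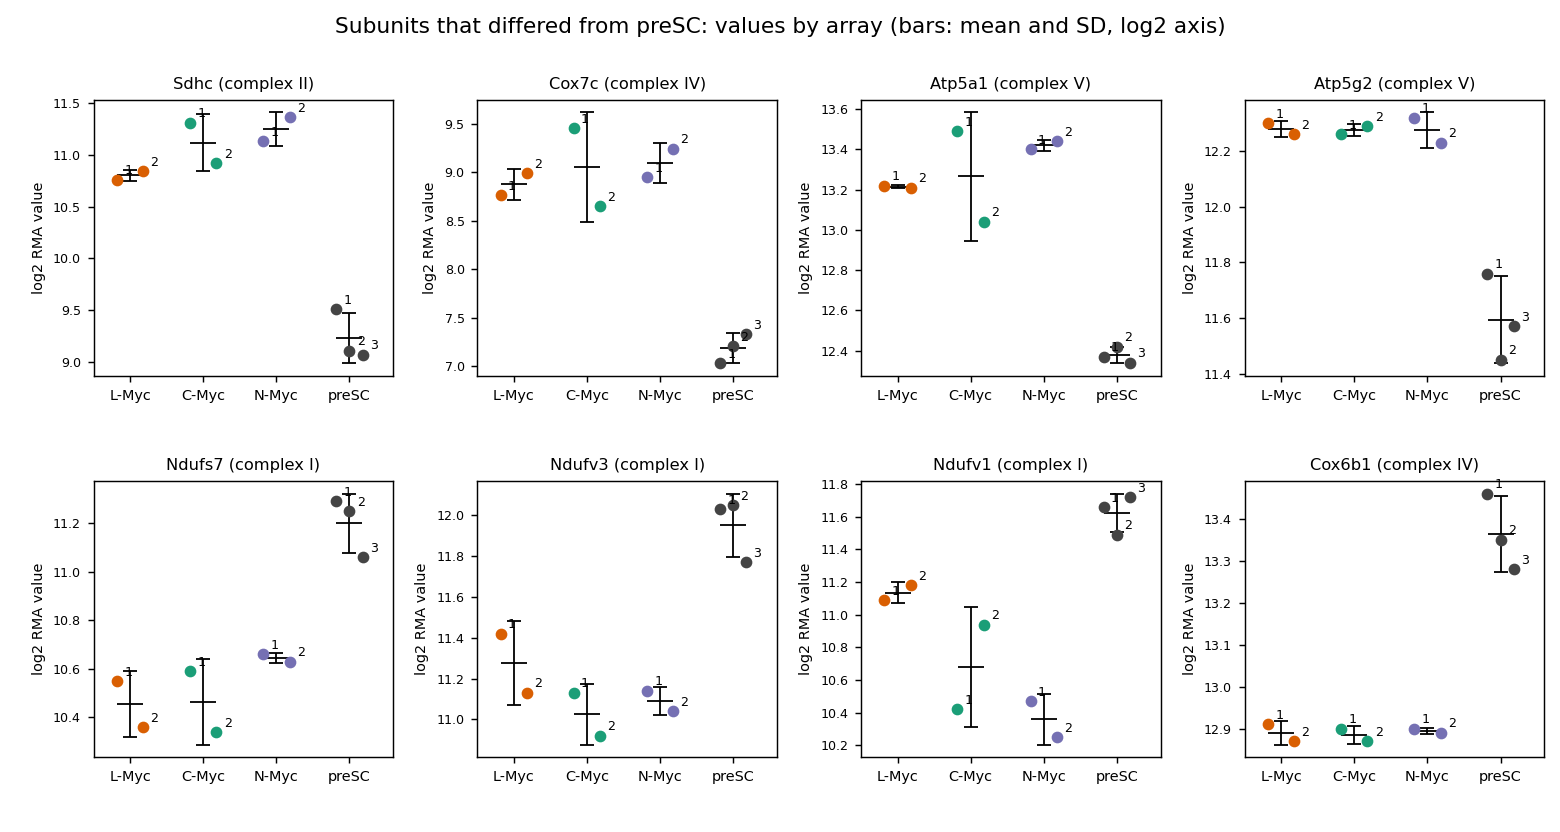
Log2 RMA values of 8 members by array, with the transduced groups left of preSC, and bars for the mean and SD (2 arrays per transduced group, 3 preSC arrays). By the brightest probe set of each gene, Sdhc, Cox7c, Atp5a1 and Atp5g2 are higher and Ndufs7, Ndufv3, Ndufv1 and Cox6b1 lower in every transduced array than in any preSC array.

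Complex I, the largest of the chain, takes electrons from NADH at the tip of its hydrophilic arm. At that tip, Ndufv1 binds FMN and NADH next to Ndufv2 and the accessory Ndufv3. It held falls and, at the brightest probe set of Ndufv2 in C-Myc only, a rise. Ndufv3 read 11.42 and 11.13 in L-Myc arrays, 11.13 and 10.92 in C-Myc arrays, 11.14 and 11.04 in N-Myc arrays and 12.03, 12.05 and 11.77 in preSC arrays. Its 6 transduced values lay below all preSC values, and it fell (-0.67, -0.92 and -0.86; SE 0.16, limma adjusted p = 0.0331, 0.00897 and 0.00963).

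Ndufv1 read 11.09 and 11.18 in L-Myc arrays, 10.42 and 10.94 in C-Myc arrays, 10.47 and 10.25 in N-Myc arrays and 11.66, 11.49 and 11.72 in preSC arrays. This probe set, its brightest, was lower in every transduced array, and lowest in C-Myc 1 and the N-Myc arrays. It fell in C-Myc (-0.94) and N-Myc (-1.26; SE 0.18, limma adjusted p = 0.0127 and 0.00507), and differed by -0.49 in L-Myc (adjusted p = 0.123). The second probe set fell in the same groups (-1.03 and -1.24). The faintest fell in N-Myc (-0.57) but differed by -0.27 in C-Myc without passing. In L-Myc it differed by 0.15, with both L-Myc arrays above all preSC arrays. Ndufv2, which carries an iron-sulphur cluster, rose in C-Myc by 0.45 and differed by 0.36 in both L-Myc and N-Myc. Its other probe sets differed by 0.18 and 0.22 in C-Myc and did not pass in any group.

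Ndufs7, an iron-sulphur subunit next to the quinone site, read 10.55 and 10.36 in L-Myc arrays, 10.59 and 10.34 in C-Myc arrays, 10.66 and 10.63 in N-Myc arrays and 11.29, 11.25 and 11.06 in preSC arrays. The groups did not overlap, and it fell (-0.75, -0.73 and -0.56; SE 0.14, limma adjusted p = 0.0183, 0.013 and 0.0265). Its second probe set differed by -0.13, -0.15 and -0.08, none passing. Ndufs4, an accessory subunit whose loss causes a Leigh-like disease in mice, rose by 0.61, 0.60 and 0.61 (SE 0.16; adjusted p = 0.0461, 0.0356 and 0.0288), with transduced arrays at 10.21 to 10.52 and preSC arrays at 9.61 to 9.92. Of its other 3 probe sets, the faintest rose by 0.68, 0.65 and 0.76, and the second-brightest differed by 0.50, 0.13 and -0.24.

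Other accessory complex I subunits passed in 1 or 2 comparisons. Ndufb5, of the membrane arm, rose in C-Myc by 0.50 and in N-Myc by 0.52 and differed by 0.45 in L-Myc (adjusted p = 0.0646). In N-Myc, Ndufa5 rose by 0.68 and Ndufa3 by 0.54, and Ndufb8 fell (-0.64). Among core subunits, Ndufs1, the largest, differed by 0.27, 0.34 and 0.39 and Ndufs3 by 0.13, 0.13 and 0.30, none passing. Ndufa4 differed by 0.26, 0.37 and 0.43 and Ndufa4l2 by 0.31, 0.31 and 0.43, also without passing.

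Complex III carries electrons from ubiquinol to cytochrome c. Uqcrh, the acidic hinge protein that links cytochrome c1 with cytochrome c, read 12.75 and 12.99 in L-Myc arrays, 13.02 and 12.98 in C-Myc arrays, 12.85 and 12.85 in N-Myc arrays and 12.28, 12.25 and 12.44 in preSC arrays. All transduced values were above all preSC values, and Uqcrh rose by 0.54, 0.68 and 0.52 (SE 0.13; limma adjusted p = 0.037, 0.0129 and 0.0246). Its second probe set, at 0.33, 0.40 and 0.31, did not pass. Uqcrc2, a core protein, rose in N-Myc by 0.54 and differed by 0.22 in L-Myc and 0.41 in C-Myc by its brightest probe set. Its second probe set, nearly as bright, differed by -0.18, -0.07 and 0.01, none passing. The core protein Uqcrc1 differed by 0.52, 0.38 and 0.16 and the Rieske iron-sulphur protein Uqcrfs1 by 0.30, 0.43 and 0.42 (smallest adjusted p = 0.0514).

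Complex V has a catalytic head of alpha and beta subunits and a rotor whose ring is built of subunit c. Atp5a1, the alpha subunit, read 13.22 and 13.21 in L-Myc arrays, 13.49 and 13.04 in C-Myc arrays, 13.40 and 13.44 in N-Myc arrays and 12.37, 12.42 and 12.34 in preSC arrays. The preSC arrays lay within 0.1 of each other and below all others. This probe set rose by 0.84, 0.89 and 1.05 (SE 0.15; limma adjusted p = 0.016, 0.00926 and 0.00516). The gene's other probe sets went against it: the second differed by -0.10, -0.16 and 0.03, and the faintest fell in N-Myc (-1.05; adjusted p = 0.0151 over all probe sets). No direction is therefore given for the gene as a whole.

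The genes Atp5g1, Atp5g2 and Atp5g3 encode the same mature subunit c. Atp5g2 read 12.30 and 12.26 in L-Myc arrays, 12.26 and 12.29 in C-Myc arrays, 12.32 and 12.23 in N-Myc arrays and 11.76, 11.45 and 11.57 in preSC arrays. The 6 transduced arrays lay close together above preSC, and Atp5g2 rose by 0.69, 0.68 and 0.68 (SE 0.13; limma adjusted p = 0.0184, 0.0129 and 0.0115). Its second probe set was dim, at 4.97 to 5.69. By their brightest probe sets, Atp5g1 differed by 0.25, 0.57 and 0.46 and Atp5g3 by -0.09, -0.02 and 0.16, none passing. The second Atp5g1 probe set passed as lower in N-Myc (-0.84; limma adjusted p = 0.0334), so no direction is given for Atp5g1.

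Atp5mpl, a small protein associated with the membrane part of the enzyme, rose in C-Myc by 0.74 and in N-Myc by 0.86 and differed by 0.61 in L-Myc (adjusted p = 0.0909). In N-Myc the catalytic beta subunit Atp5b rose by 0.46 and the epsilon subunit of the central stalk, Atp5e, fell (-0.54). Over all complexes, 6 members rose in all 3 comparisons by their brightest probe set (Ndufs4, Sdhc, Uqcrh, Cox7c, Atp5a1 and Atp5g2), 7.59% of those tested beside 4.25% of all genes, and 3 fell in all 3 (Ndufs7, Ndufv3 and Cox6b1), 3.8% beside 5.69%. At least 1 comparison called 24 members, 30.4% beside 34.5% of all genes, and 55 members passed in none. Fits that leave out an array have fewer degrees of freedom for every gene. The share of all genes that keep passing in them is not given here. Whichever single array was left out, 2 of 10 called members still passed in L-Myc, 6 of 16 in C-Myc and 2 of 21 in N-Myc, and every called member kept its direction. Ndufs4 in L-Myc, for example, then lay between 0.46 and 0.77 with adjusted p up to 0.222, and Atp5a1 in L-Myc between 0.82 and 0.86 with adjusted p up to 0.0746.

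Where a second probe set could be tested, it often did not pass. In L-Myc, 8 of 10 called members had one, 6 with the same sign and 2 that passed. In C-Myc there were 12, with 10 of the same sign and 4 that passed, and in N-Myc 16, with 13 and 6. For Ndufs8, an iron-sulphur subunit of complex I with 6 probe sets that was named after its values were seen, the brightest differed by 0.36, -0.04 and -0.42 without passing. Its next brightest pair passed as lower in C-Myc, at -0.63 and -0.72, and in N-Myc, at -0.99 and -1.10. The fainter probe sets differed by 0.11, 0 and 0.14 in C-Myc and by -0.35, -0.31 and -0.09 in N-Myc. None of these passed in any group.

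**Figure D4:**
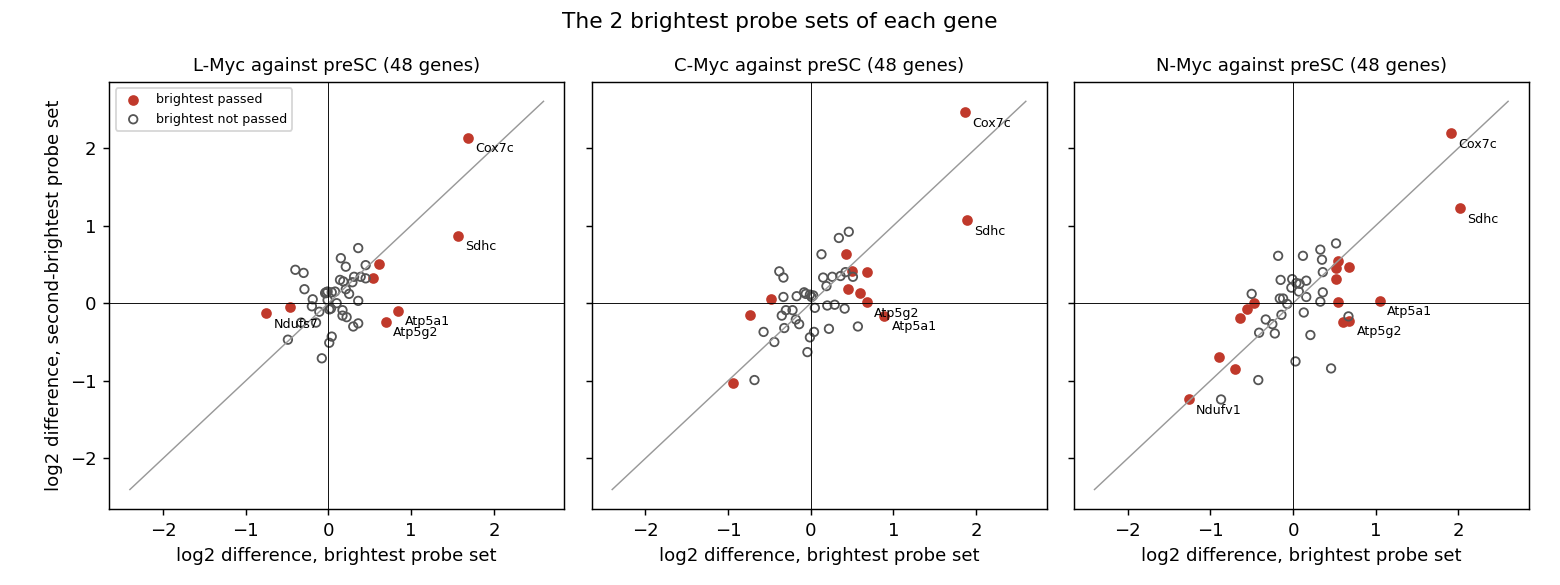
Difference from preSC (log2) of the second-brightest probe set (vertical) against that of the brightest (horizontal) for members with both, 1 panel per transduced group. Sdhc and Cox7c lie far up on both axes, while Atp5a1, Atp5g2, Ndufs7 and Cox6b1 lie between -0.24 and 0.05 on the vertical axis.

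Between the transduced groups, no member passed in L-Myc against C-Myc, L-Myc against N-Myc or C-Myc against N-Myc, and 0 of 12976 genes did (limma). At an unadjusted p under 0.05 there were 3, 11 and 2 members and 602, 2432 and 541 genes. In L-Myc against N-Myc the smallest adjusted p of a member was 0.165, shared by Ndufv1 (difference 0.78, SE 0.20), Cox8a (0.86, SE 0.21) and Cox7a1, which is dim in L-Myc. The C-Myc arrays were unlike: 12 members differed between C-Myc 1 and C-Myc 2 by over 0.5, 15.2% beside 32.2% of all genes. The L-Myc pair differed by that much at 4 members (5.06% beside 26.1%), the N-Myc pair at none (3.78% of all genes), and L-Myc 2 and C-Myc 2 at none.

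Several subunits followed these array pairs and not the labels. Cox8a read 12.58 and 12.20 in L-Myc arrays, 11.61 and 12.09 in C-Myc arrays, 11.57 and 11.49 in N-Myc arrays and 12.60, 12.29 and 12.38 in preSC arrays. Ndufb8, of the complex I membrane arm, read 11.98 and 11.89 in L-Myc arrays, 11.29 and 11.90 in C-Myc arrays, 11.21 and 11.30 in N-Myc arrays and 12.08, 11.75 and 11.86 in preSC arrays. Cox7a2 read 12.91 in C-Myc 1, 12.92 and 12.97 in the N-Myc arrays and 13.48 to 13.75 in the other arrays. All of them were low in C-Myc 1 and both N-Myc arrays. In C-Myc 2, Ndufb8 and Cox7a2 lay among the preSC and L-Myc values, and Cox8a lay between those and the low arrays.

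Without preSC 3, L-Myc 2 and C-Myc 2, an alternative chosen after seeing the data, 11 members passed in L-Myc, 31 in C-Myc and 42 in N-Myc against preSC, which is 13.9%, 39.2% and 53.2% beside 32.8%, 50.8% and 55.9% of all genes. Sdhc then differed by 1.45, 2.00 and 1.93 and Cox7c by 1.64, 2.33 and 1.98. For the comparisons between transduced groups in this fit, only differences are given. Cox6a2 was higher in L-Myc than in C-Myc by 1.45 and than in N-Myc by 1.69, and Cox8a by 0.97 and 1.05. Cox6b2 was also higher in L-Myc than in both, with no size given because C-Myc 1 and N-Myc 2 were below the 40th percentile. The fit has 2 residual degrees of freedom, and the lone L-Myc and C-Myc arrays are assumed to vary like the 2 remaining pairs.

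**Figure D5:**
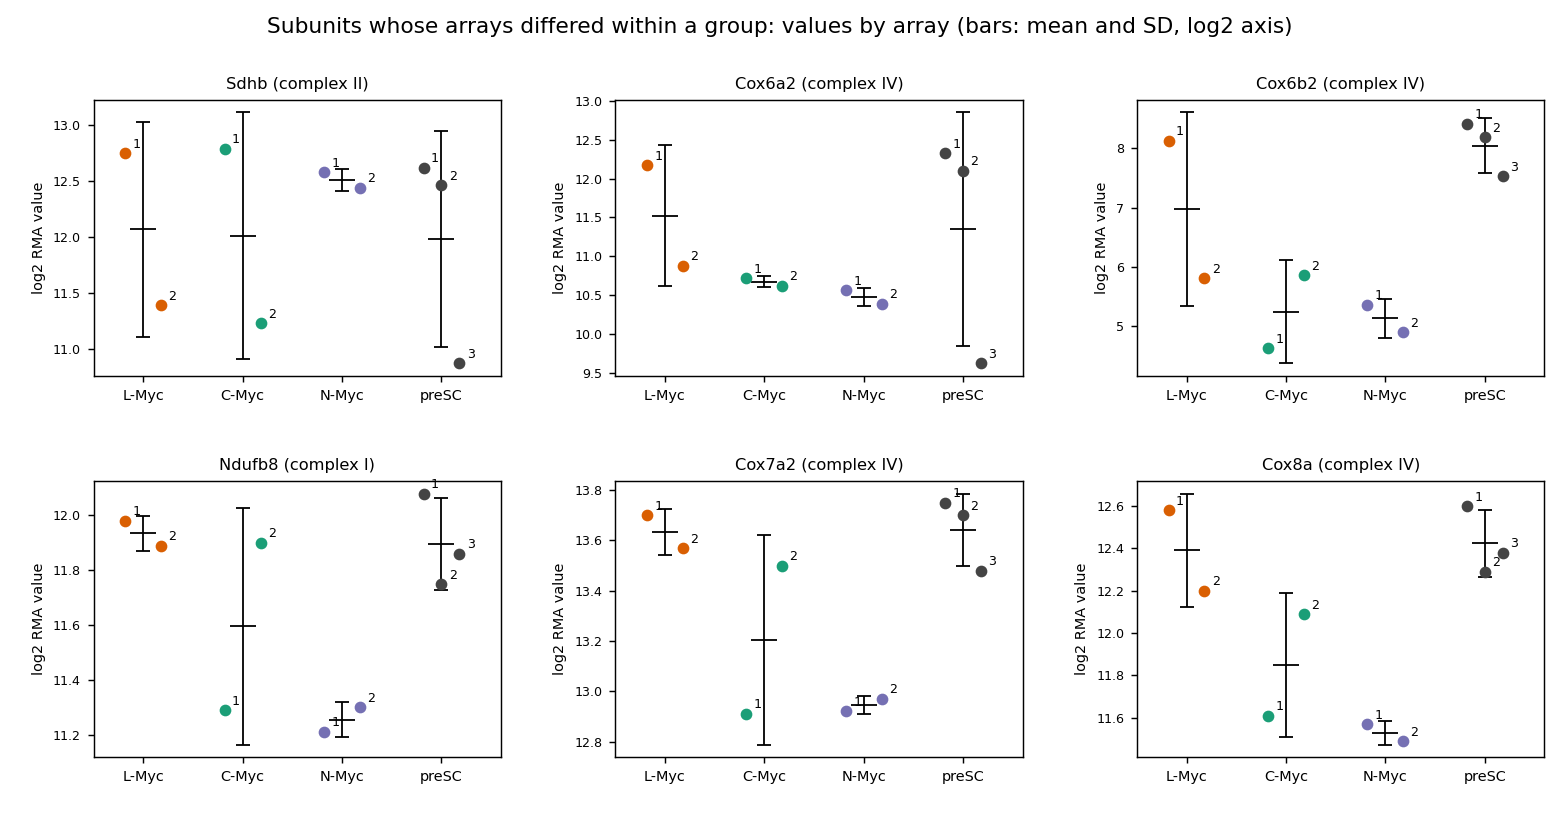
Log2 RMA values by array of members whose values divide arrays within a label, with the transduced groups left of preSC. Sdhb is low in L-Myc 2, C-Myc 2 and preSC 3 (10.87 to 11.39), and Cox8a and Cox7a2 are low in C-Myc 1 and both N-Myc arrays.

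The surrounding pathway was read through lists written with earlier results of these data known. The TCA cycle list also held pyruvate dehydrogenase subunits and their kinase Pdk1. Of its 17 genes tested, 1 rose in L-Myc, 4 in C-Myc and 6 in N-Myc and none fell. Pdk1 was among those that rose in C-Myc (0.87) and in N-Myc (0.79). Over all genes, 5.44%, 9.91% and 12.5% rose and 8.03%, 13.6% and 16.4% fell. Suclg2, the GDP-forming beta subunit of succinyl-CoA ligase, which makes the succinate that complex II uses, read 9.28 and 9.42 in L-Myc arrays, 9.75 and 9.48 in C-Myc arrays, 9.42 and 9.53 in N-Myc arrays and 7.98, 7.77 and 8.13 in preSC arrays. It rose by 1.39, 1.66 and 1.51 (SE 0.16; limma adjusted p = 0.00526, 0.00245 and 0.00247), and its second probe set by 1.37, 1.70 and 1.47. Idh2, the mitochondrial NADP-dependent isocitrate dehydrogenase, rose in C-Myc by 0.88 and in N-Myc by 0.98.

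Of 15 regulators of mitochondrial gene expression, 3, 4 and 4 rose and none fell. Over all genes, 5.44%, 9.91% and 12.5% rose and 8.03%, 13.6% and 16.4% fell. In so short a list, the absence of falls is not read as a result. Gabpb1, the partner subunit of the ETS factor GABPA, rose by 1.14, 1.01 and 0.87 (SE 0.23), with both probe sets passing. Tfb2m, a mitochondrial transcription factor, rose by 0.54, 0.85 and 0.55, and Tfam, which packages mitochondrial DNA, rose in C-Myc by 0.67 and in N-Myc by 0.60. The brightest Nrf1 probe set rose by 0.98, 1.04 and 0.99, but the middle pair did not pass and the faintest fell (-0.95, -0.84 and -1.03), so no direction is given for Nrf1.

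The counts of the next lists stand beside 5.44%, 9.91% and 12.5% of all genes that rose and 8.03%, 13.6% and 16.4% that fell. The lists are short, and counts near those shares are not read as a result. Of 14 complex I assembly factors, 2, 5 and 5 rose and 0, 0 and 1 fell. Tmem126b, of the assembly complex for the membrane arm, rose by 0.98, 0.97 and 0.85, Ecsit rose in L-Myc by 0.77 and in C-Myc by 0.69, Ndufaf6 rose in C-Myc by 0.99 and in N-Myc by 0.96, and Ndufaf3 fell in N-Myc (-1.43). No gene passed among 9 assembly factors of complexes II and III. Of 21 for complexes IV and V, 1, 4 and 3 rose and 0, 1 and 1 fell: Tmem70, needed for ATP synthase assembly, rose in C-Myc by 0.99 and in N-Myc by 0.98, while for Cox15, of haem A synthesis, the brightest probe set fell in the same groups (-0.51 and -0.71) and the faintest, at 6.69 to 7.58 in transduced and a dim 4.77 to 5.01 in preSC arrays, passed as higher in all 3, so no direction is given for Cox15. Cytochrome c itself, Cycs, and the pyrophosphatase Ppa2 were the 2 of 9 carriers and subunits outside the name pattern that passed, both in N-Myc, by 0.61 and 0.59. For mitochondrially encoded genes, 26 symbols were listed, with each gene under 2 spellings. Of these symbols 1 was measured, and it did not pass.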

How the data were processed

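RNA of 9 cell samples was measured on Affymetrix mouse arrays. The authors deposited log2 values, 1 per probe set and array, made by RMA with the affy package of R 3.0.1, per the submitters' processing notes. RMA gives the arrays a common distribution, so a shift of all transcripts one way would be lost, and differences at dim probe sets are compressed. The labels give polyA RNA for preSC and L-Myc and total RNA for C-Myc and N-Myc, while the extraction protocol names total RNA for all. Sources used here do not name an array build. The number of arrays limits the precision.

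Of 45101 probe sets, 34945 gave 1 gene symbol and were no controls, 932 gave several and 9211 were not listed in the platform annotation or had no symbol. All 81 members matched RefSeq (GRCm38.p6) by Entrez identifier, which served for names and promoters only. A gene was tested if above the 40th percentile of an array in at least 2 of 9 arrays. Group means were fitted to all 9 arrays with limma 3.58.1 (R 4.3.3; 5 residual degrees of freedom), two-sided, with Benjamini-Hochberg adjustment over 12976 genes and a threshold of 0.05. Differences are log2, and SE is their standard error in this fit. The fit was tested on simulated data.

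The members, lists and tests were chosen with earlier results of these data known. Named members are up to 3 rises and 3 falls per complex and comparison, a fixed set of core subunits and paralogues, up to 3 genes per other list, and members whose probe sets passed in opposite directions. Alternatives were the second-brightest probe set, the mean of probe sets, no filter, 2 further scalings, fits to 2 groups, an intensity trend, a replicate block and leaving out arrays. Replicate numbers shared between groups were not used to pair arrays in the main fit, because the labels name no shared batch. Correlations of same-numbered deviations lay between -0.68 and 0.65. In a group of 2 arrays the deviations mirror each other, so these values cannot settle whether arrays were paired.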

Additional observations from a re-analysis of the deposited data

How the results depend on the processing

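Leaving out an array lowers the degrees of freedom for every gene, and shares over all genes are not given here for such fits. Losses in them are therefore not read as particular to these members. Sdhc and Cox7c rose in all 3 comparisons with preSC in every setting run. Most other calls did not hold when 1 array was left out: members that rose then numbered 2 to 4 in L-Myc (6 with all arrays), 4 to 11 in C-Myc (10) and 2 to 9 in N-Myc (12), and those that fell 0 to 3 (4), 2 to 9 (6) and 0 to 8 (9). Whichever array was left out, 2, 6 and 2 members still passed: Sdhc and Cox7c in each, and in C-Myc also Ndufv1, Ndufv3, Atp5a1 and Atp5g2. Leaving out 1 array called no member in the comparisons between transduced groups (0 to 0).

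Centring arrays gave 10 rises and 1 fall in L-Myc, 19 rises in C-Myc, and 26 rises and 4 falls in N-Myc. Quantile normalization gave 12 falls in C-Myc and 14 in N-Myc. Of the members called there, 40% and 44% were higher, beside 43% and 45.9% of all genes called. The mean of probe sets gave 2 rises and 2 falls in L-Myc and 5 falls in N-Myc. Fits to the 2 groups compared gave 2 falls in L-Myc and 5 rises in C-Myc. With a replicate block there were 2 rises and 2 falls in L-Myc, 5 rises in C-Myc and 6 rises in N-Myc. Shares over all genes are not given here for the mean of probe sets, the 2-group fits and the replicate block. Their counts are therefore not read as particular to these members. Among the 48 members with a second probe set, the second gave 0 falls in L-Myc and 2 in C-Myc, and the brightest of the same genes 2 and 3. In N-Myc, falls with the second and the brightest were 3 and 3 in complex I, 2 and 3 in complex IV and 2 and 0 in complex V. Rises and shares over all genes are not given here for this setting, so these counts are not read as a result either. Without preSC 3, L-Myc 2 and C-Myc 2 there were 18 rises and 13 falls in C-Myc, 24 and 18 in N-Myc, 9 and 2 in L-Myc against C-Myc, and 10 and 1 in L-Myc against N-Myc.

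Signs turned for the second-brightest probe set of Atp5a1 (-0.10 in L-Myc, -0.16 in C-Myc), Atp5g2 (-0.24 in L-Myc, -0.23 in N-Myc), Cox6b1 (0.05 in C-Myc), Ndufs4 (-0.24 in N-Myc) and Atp5g1 (-0.84 in N-Myc, adjusted p = 0.0334). The cause was not tested for any of these changes.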
